A study of Mus musculus with 20 samples.

Results

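The genes described here are 8 chemokine receptors that guide T cells into tissues: Ccr9, Ccr10, Ccr2, Ccr6, Cxcr3, Cxcr4, Cxcr6 and Cx3cr1. They were chosen by name, with earlier results of these data known, from the 20886 mouse genes with a named probe on the array. Each was read from the brightest of its probes. Of the 8 receptors 7 entered the test, among 8057 genes in all. Donor CD8+ effector T cells (Teff) from small intestine, liver and lung were compared with those from peripheral blood, with 5 arrays per site and 20 in all. All cells came from female C57Bl/6 m-act OVA recipients aged 8-16 weeks, which carry an ovalbumin transgene under the CAG promoter, and all recipients had lethal acute graft-versus-host disease. Every recipient had 11 Gy of irradiation in 2 doses of 5.5 Gy, given 3 hours apart, and a graft of marrow cells with splenocytes from OT-I donors, whose T cell receptor recognises ovalbumin. Only the grafted OT-I CD8+ T cells carried the CD45.1 allele, whereas the other graft cells and the recipients carried CD45.2. Cells were recovered 4 days after transplantation by magnetic selection for CD45.1, and their RNA was amplified before hybridisation. Which animal each array came from is not given in the labels, and the p-values below cover only variation among arrays, which may be technical. No naive T cells or cells of mice without disease are in the comparison.

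Chemokine receptors are cell surface proteins with several membrane-spanning helices that signal through Gi proteins, and they steer a T cell along a gradient of a secreted chemokine. A T cell that carries CCR9 is drawn to CCL25 made by small intestinal epithelium, CCR10 answers to CCL27 in skin and to CCL28 at mucosal surfaces, and CXCR3 answers to interferon-induced chemokines in inflamed tissue. CXCR4 binds CXCL12, which holds cells in bone marrow and many tissues, and CXCR6 binds CXCL16, which is known for keeping T cells in the liver sinusoids.

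Signals are given as log2 of the processed signal minus the array's 75th percentile, so a value of 0 equals that percentile and a difference of 1 is a doubling. That percentile ran between 772 and 2603 in signal units, and 22.6% to 38.7% of probes per array were well above background. The arrays of the 4 sites carried T cell RNA: the mean over 15 genes of CD8 T cell identity, such as Cd3e and Cd8a, was 4.02 ± 0.81 in small intestine, 4.73 ± 0.09 in liver, 4.36 ± 0.23 in lung and 4.58 ± 0.18 in blood (SD, n = 5 each). On small intestine arrays 1 to 5 that mean was 3.97, 3.37, 4.84, 3.10 and 4.83, so arrays 1, 2 and 4 lay below every blood array, the lowest of which was 4.35. In the same arrays RNA of other cells was present, and a bulk signal cannot tell fewer T cells from less receptor RNA per T cell. A pair of arrays went against their labels: the mean of 5 Paneth cell markers was 4.57 on the array labelled liver 5, against -2.14 to -1.71 on the other liver arrays, and -2.92 on the array labelled small intestine 5, against 2.50 to 7.28 on the other small intestine arrays. Values without both arrays stand beside the results or together further on.

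Ccr10 was the receptor that differed between sites past the threshold, which was an adjusted p below 0.05 in limma with Benjamini-Hochberg adjustment over all genes tested. It read -0.28, -2.67, -2.84, -2.52 and -0.27 on small intestine arrays 1 to 5, against 0.31, 0.39, 2.13, 0.24 and 1.20 in blood. Every small intestine array lay below every blood array, and on arrays 2, 3 and 4 of small intestine the probe was not well above background. Ccr10 fell in small intestine by 2.57 ± 0.78 (SE) on the log2 scale, which is 5.94-fold lower, with a 95% interval of -4.20 to -0.94 (adjusted p = 0.0431). Since 3 of the 5 small intestine readings in this mean were at background level, the size of the fold is uncertain, whereas all 5 blood readings were well above background. Of the 7 receptors 1 passed in this comparison, where 10.9% of all genes tested passed, and 9.95% were lower in small intestine. Groups that did not overlap, with small intestine lower, occurred in 7.73% of genes. The count of 1 receptor is near this background. Within the 5 slides the small intestine array lay below the blood array by -0.58, -3.07, -4.97, -2.76 and -1.47.

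The call for Ccr10 depended on single arrays. It held in 9 of the 20 fits that left out 1 array, with an adjusted p of 0.00907 to 0.0489, and was lost in 11, where the adjusted p was 0.0512 to 0.120. The 11 were the fits without liver 1, liver 2, lung 5, small intestine 2, 3 or 4, or any of the 5 blood arrays, and over all 20 the difference stayed between -2.93 and -2.25. With both of the arrays that went against their labels left out the difference was -2.93 (adjusted p = 0.00157), in a fit where 27.6% of genes passed. Relative to the CD8 T cell identity genes, Ccr10 averaged -5.74 ± 1.28 in small intestine and -3.72 ± 0.68 in blood (SD, n = 5 each), and with that scaling the difference was -2.01 (adjusted p = 0.165). The lowest small intestine value came from array 3, whose identity mean was 4.84. On arrays 2, 3 and 4 of small intestine Ccr10 was not well above background, so the order and size of these values are uncertain. The part of T cell content in the Ccr10 difference was not tested.

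In the other organs Ccr10 did not differ from blood past the threshold. It read 0.92, 1.03, 2.36, 1.49 and -3.05 on liver arrays 1 to 5, and 1.28, -0.17, 1.86, 0.73 and 0.62 on lung arrays 1 to 5. The array labelled liver 5 was far below the others and was the sole liver array on which Ccr10 was not well above background. The difference from blood was -0.30 ± 0.78 in liver (95% interval -1.93 to 1.33) and 0.01 ± 0.78 in lung (95% interval -1.62 to 1.64). Without the pair of arrays that went against their labels the liver value turned to 0.60. Small intestine against lung also did not overlap, with a difference of -2.58 ± 0.78 (adjusted p = 0.216). Lower groups without overlap made up 0.658% of genes in that comparison, and 0.149% of genes passed the test. Small intestine against liver differed by -2.27 ± 0.78 (adjusted p = 0.157). With the pair left out both passed, at -2.94 (adjusted p = 0.00610) against lung and -3.53 (adjusted p = 0.000918) against liver, where 2.37% and 17.4% of genes passed. Of the 4 small intestine arrays then left, 3 had Ccr10 readings not well above background, so the size of both differences is uncertain. Leaving out liver 5 alone gave adjusted p values of 0.0434 against lung and 0.0164 against liver, and leaving out small intestine 5 alone gave 0.0453 against liver.

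**Figure D1:**
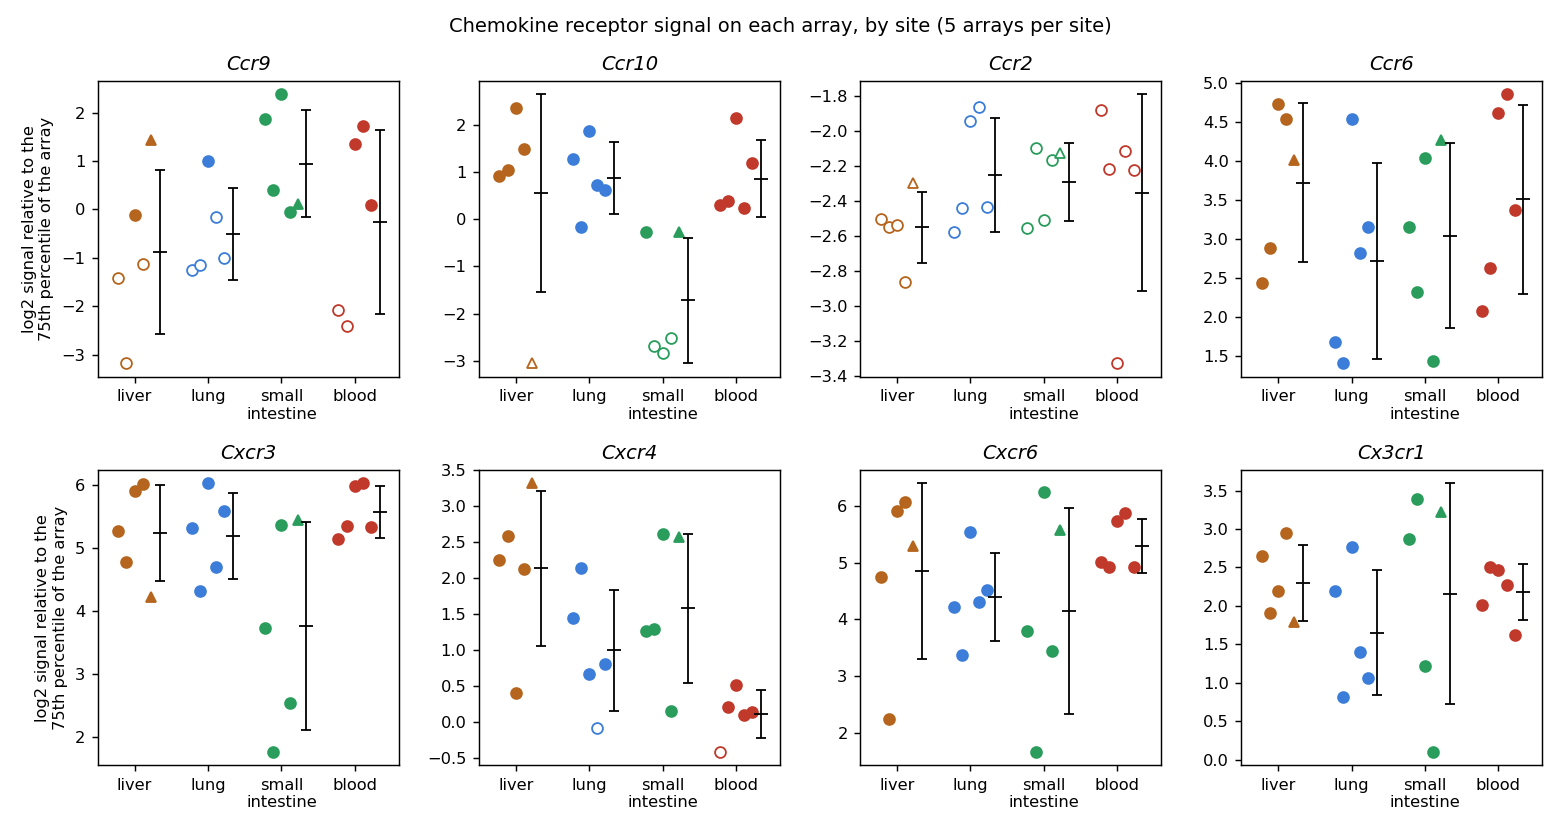
Log2 signal minus the array's 75th percentile (vertical axes, which differ between panels) for the 8 receptors on each array by site. Open symbols were not well above background, triangles are the arrays labelled liver 5 and small intestine 5, and bars are the mean ± SD of 5 arrays. Ccr10 is lower on all small intestine arrays than in blood, and 4 of 5 arrays of each organ are above all blood arrays for Cxcr4.

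Ccr9, the gut-homing receptor, is held by the test only through small intestine, where 5 of 5 arrays showed the probe well above background, so its place among the genes tested is not evidence of a difference. It was well above background on 2 liver arrays, 1 lung array and 3 blood arrays. It read 1.86, 0.40, 2.37, -0.06 and 0.12 on small intestine arrays 1 to 5, against -2.07, -2.41, 1.35, 1.72 and 0.09 in blood. Blood itself was split, with arrays 1 and 2 not well above background and arrays 3 and 4 among the highest of all 20. The means were 0.94 ± 1.11 in small intestine and -0.26 ± 1.91 in blood (SD, n = 5 each), and the difference of 1.20 ± 0.85 did not pass (95% interval -0.56 to 2.97, adjusted p = 0.278). Small intestine was above blood on 4 of 5 slides and above lung on 5 of 5, with a difference from lung of 1.45 ± 0.85 (adjusted p = 0.765).

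Liver and lung did not stand above blood for Ccr9. It read -1.42, -3.18, -0.12, -1.13 and 1.43 on liver arrays 1 to 5, and -1.25, -1.15, 1.00, -0.15 and -0.997 on lung arrays 1 to 5. The highest liver value came from the array labelled liver 5. Against liver, small intestine was higher by 1.82 ± 0.85 (adjusted p = 0.216), and without the pair of arrays that went against their labels by 2.60 (adjusted p = 0.0496). Nothing is read from that p, because Ccr9 entered the test through small intestine alone, 1 of the 4 liver arrays left had it well above background, and the array taken out was the highest of liver. The difference from blood was -0.62 ± 0.85 in liver and -0.25 ± 0.85 in lung.

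Cxcr4 read higher on most organ arrays than in blood, although it missed the threshold in each comparison. It read 2.25, 2.58, 0.40, 2.12 and 3.32 on liver arrays 1 to 5, against -0.41, 0.22, 0.52, 0.10 and 0.15 in blood. It read 1.27, 1.30, 2.62, 0.16 and 2.57 in small intestine and 1.45, 2.14, 0.67, -0.08 and 0.81 in lung. In each organ 4 of 5 arrays were above all 5 blood arrays, and blood had the narrowest spread, with an SD of 1.07 in liver, 1.03 in small intestine, 0.84 in lung and 0.34 in blood.

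The liver mean of Cxcr4 was 2.02 ± 0.51 above blood (95% interval 0.95 to 3.09), with an unadjusted p of 0.00083 but an adjusted p of 0.743 in limma. No gene passed in liver against blood, 0% of 8057, and 216 genes, 1 receptor among them, had an unadjusted p below 0.05. In small intestine Cxcr4 was 1.47 ± 0.51 above blood (95% interval 0.40 to 2.54, adjusted p = 0.0649), and higher on 5 of 5 slides, by 0.06 on slide 4 and by 1.09 to 2.42 on the others. It passed without liver 3 (adjusted p = 0.0464), and no other fit that left out 1 array gave a call. In lung it was 0.88 ± 0.51 above blood (adjusted p = 0.202), where 0.819% of genes and no receptor passed. There 2781 of 8057 genes, and no receptor among them, had an unadjusted p below 0.05. Lung was 1.14 ± 0.51 below liver (unadjusted p = 0.0389, adjusted p = 0.308), in a comparison in which 0.285% of genes passed.

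Against the CD8 T cell identity genes the small intestine and blood values of Cxcr4 came fully apart. Receptor minus identity mean was -2.44 ± 0.37 in small intestine, with a range of -2.94 to -2.06, and -4.46 ± 0.19 in blood, with a range of -4.76 to -4.28. Lung was also apart from blood, with a range of -4.05 to -2.19, while liver overlapped it, at -4.42 to -1.45. With that scaling, which was chosen after the data were seen, small intestine was 2.03 above blood and passed (adjusted p = 0.0439), where 0.459% of genes did. Under it no receptor passed in liver or lung against blood. Small intestine above blood without overlap was found in 1.17% of genes under that scaling. The share for lung was not counted, so nothing is read from the gap between lung and blood. The part that cells other than T cells have in the Cxcr4 signal was not tested. The signal of monocyte and macrophage markers, cells that can carry CXCR4, was summed over 13 markers with a probe, of which 3 were tested. On small intestine arrays 1 to 5 the sum was 283, 380, 26.1, 14.0 and 18.2 times the 75th percentile. Cxcr4 read 1.27, 1.30, 2.62, 0.16 and 2.57 on the same arrays. In the other sites the sum was 17.9 to 43.2 in liver, 21.3 to 38.3 in lung and 14.7 to 34.7 in blood. The sum includes Itgam, the brightest of these markers, which averaged 3.61 in small intestine and 4.22 in blood. The log2 mean of the 3 tested markers ordered the arrays differently. It was 5.04, 5.39, 0.53, 1.74 and 1.01 on small intestine arrays 1 to 5. That mean was 0.62 to 2.73 in liver, 0.73 to 2.48 in lung and 0.07 to 1.44 in blood. Of 10 B cell markers with a probe 2 were tested, and their summed signal was 7.98 to 15.0 in small intestine, 4.24 to 23.2 in liver, 8.15 to 20.6 in lung and 4.37 to 11.5 in blood. The markers Ms4a1, Cd79a and Pax5 stayed at background level on all 20 arrays, while Ebf1 (mean 2.32 in small intestine and 1.64 in blood) and Cd79b (1.54 and 1.33) were well above it on all 20.

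**Figure D2:**
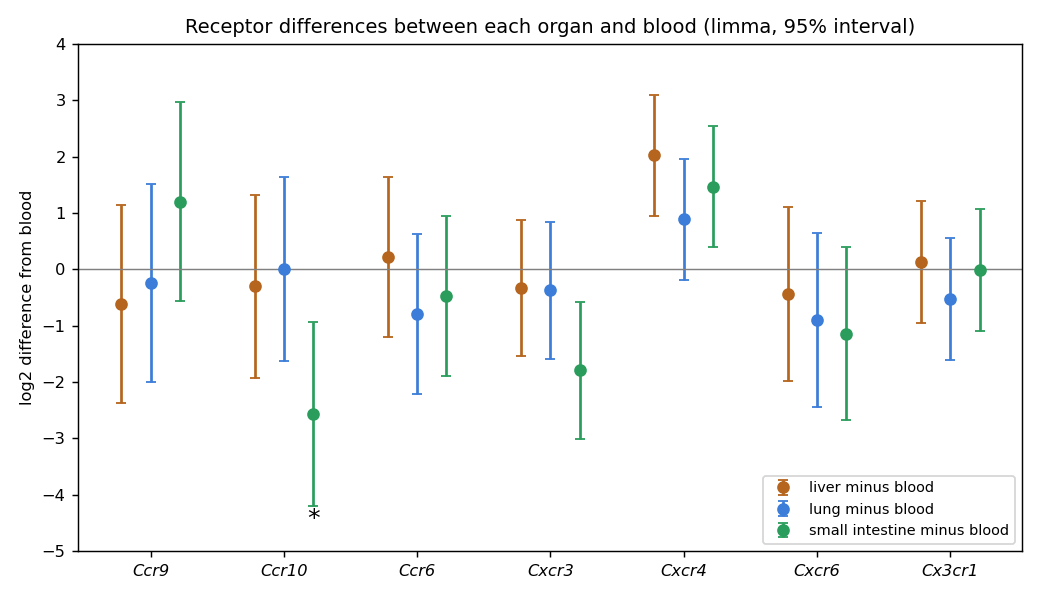
Difference of each organ from blood on the log2 scale (vertical axis) for the 7 receptors tested, with 95% intervals from limma. The asterisk marks the adjusted p below 0.05, which is Ccr10 in small intestine, and the intervals of Cxcr4 in liver and small intestine and of Cxcr3 in small intestine lie off 0 without passing after adjustment.

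The promoters of Cxcr4 and Cxcr3 are shown because their differences between small intestine and blood had opposite signs, neither of which passed. They are RefSeq windows of 300 bases on GRCm38.p6, written 5′ to 3′ on the gene's strand, with 250 bases before the start and 50 after it. The Cxcr4 window is chr1:128592250-128592549 on the minus strand. Its capitals mark 3 GC boxes (GGGCGG, here as its reverse complement CCGCCC), a motif that 35.7% of 32851 promoter windows hold on either strand.
Cxcr4: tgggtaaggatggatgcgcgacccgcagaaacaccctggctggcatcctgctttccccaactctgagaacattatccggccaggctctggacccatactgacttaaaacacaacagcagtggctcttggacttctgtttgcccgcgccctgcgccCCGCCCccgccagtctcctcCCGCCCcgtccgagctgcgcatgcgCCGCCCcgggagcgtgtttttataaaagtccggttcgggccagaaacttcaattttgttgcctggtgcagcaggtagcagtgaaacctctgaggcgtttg
The Cxcr3 window is chrX:101734098-101734397 on the minus strand. Its capitals mark 2 RUNX motifs (TGTGGT, here as ACCACA, in 16.8% of windows) and 1 NF-kB-type motif (GGG and CC set apart by any 5 bases, on the other strand, in 50.8% of windows).
Cxcr3: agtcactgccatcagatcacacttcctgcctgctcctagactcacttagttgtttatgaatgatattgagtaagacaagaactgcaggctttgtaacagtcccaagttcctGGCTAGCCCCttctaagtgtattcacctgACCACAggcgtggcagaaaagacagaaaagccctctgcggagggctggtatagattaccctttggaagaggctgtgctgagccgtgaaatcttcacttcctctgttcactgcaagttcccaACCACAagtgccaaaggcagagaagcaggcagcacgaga
A T-box motif (TCACACC, 3.98% of windows), an AP-1 motif (TGANTCA, 7.81% of windows) and an NR4A motif (AAAGGTCA, 1.51% of windows) were searched on both strands and have no match in the windows of the 7 receptors with an entry. A match or its lack describes these letters only.

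Cxcr3 guides effector T cells to inflamed tissue, and its probe was well above background on all 20 arrays. It read 3.73, 1.77, 5.37, 2.54 and 5.44 on small intestine arrays 1 to 5, against 5.14, 5.34, 5.99, 6.02 and 5.33 in blood. Arrays 3 and 5 of small intestine lay within the blood range and arrays 1, 2 and 4 below it. The difference was -1.80 ± 0.58 (95% interval -3.004 to -0.587), which missed the threshold (adjusted p = 0.0511). Cxcr3 was lower on 4 of 5 slides, by -0.62 to -3.58, and higher by 0.11 on slide 5. With the slide as a block it passed (adjusted p = 0.0342, with 13.6% of genes called), as it did without the pair of arrays that went against their labels, at -2.21 (adjusted p = 0.00895). It also passed without liver 5, lung 4, small intestine 3 or small intestine 5, at an adjusted p of 0.0111 to 0.0477.

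The Cxcr3 signal varied with the signal of the T cell identity genes. The small intestine arrays with low Cxcr3 were those with low identity means, and over the 20 arrays Pearson's r between Cxcr3 and the identity mean was 0.87, also after site means were taken off. These points share arrays and scaling, so r is a description. Cxcr3 minus the identity mean was -0.25 ± 0.90 in small intestine (SD, n = 5), with a range of -1.60 to 0.61. In blood it was 0.99 ± 0.27 (SD, n = 5), with a range of 0.76 to 1.39, so the 2 groups did not overlap. The share of all genes that were lower without overlap under this scaling was not counted. With the identity scaling the Cxcr3 difference was -1.24 and did not pass in limma (adjusted p = 0.128). The part of T cell content in the Cxcr3 difference was not tested. Cxcr3 read 5.27, 4.77, 5.91, 6.01 and 4.23 on liver arrays 1 to 5, and 5.32, 4.33, 6.03, 4.69 and 5.58 on lung arrays 1 to 5. Both organs overlapped blood, with differences of -0.33 ± 0.58 in liver (95% interval -1.54 to 0.88) and -0.38 ± 0.58 in lung (95% interval -1.58 to 0.83). Small intestine was lower than liver by -1.47 ± 0.58 (adjusted p = 0.177), and by -2.14 without the pair (adjusted p = 0.0201) and with an adjusted p of 0.0400 without small intestine 5 alone. It was lower than lung by -1.42 ± 0.58 (adjusted p = 0.484), on 5 of 5 slides.

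**Figure D3:**
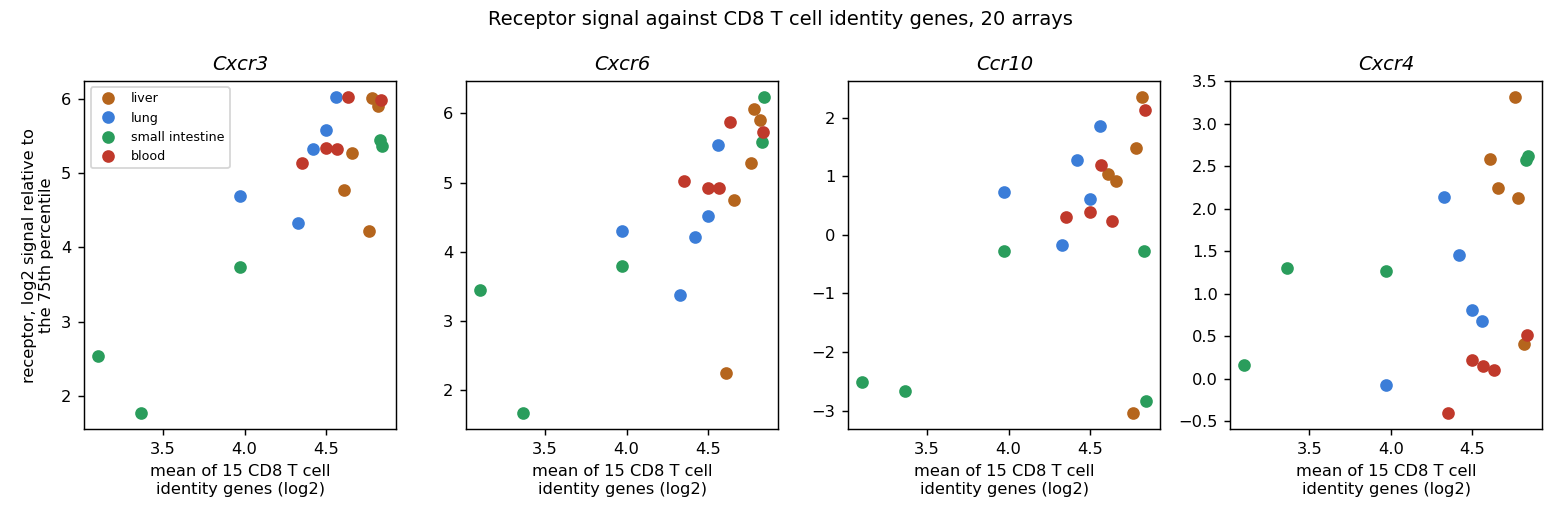
Receptor signal (vertical axis, log2 relative to the 75th percentile) against the mean of 15 CD8 T cell identity genes (horizontal axis, log2) on the 20 arrays, by site. Cxcr3 and Cxcr6 follow the identity mean (r = 0.87 and 0.71 over 20 arrays). Small intestine array 3 has a high identity mean, and its Ccr10 signal was not well above background.

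Cxcr6, the receptor for CXCL16, did not differ between sites past the threshold. It read 4.74, 2.25, 5.90, 6.07 and 5.29 on liver arrays 1 to 5, against 5.02, 4.92, 5.73, 5.87 and 4.91 in blood. It read 3.80, 1.67, 6.24, 3.45 and 5.58 in small intestine and 4.21, 3.37, 5.54, 4.30 and 4.51 in lung. Blood was narrow and high, while single arrays of liver and small intestine were far lower. The differences from blood were -0.44 ± 0.74 in liver (95% interval -1.977 to 1.099), -1.14 ± 0.74 in small intestine (95% interval -2.68 to 0.39) and -0.90 ± 0.74 in lung (95% interval -2.44 to 0.64). Lung was below blood on 5 of 5 slides. The 2 probes of Cxcr6 gave the same pattern, with r = 0.997 over the 20 arrays. Cxcr6 and Cxcr3 varied together (r = 0.78, and 0.82 with site means taken off), and r with the identity mean was 0.71.

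Ccr6, which answers to CCL20 and marks type 17 T cells, overlapped between all sites. It read 2.43, 2.88, 4.74, 4.54 and 4.01 on liver arrays 1 to 5, against 2.07, 2.63, 4.61, 4.86 and 3.37 in blood. It read 3.15, 2.32, 4.04, 1.43 and 4.27 in small intestine and 1.67, 1.40, 4.54, 2.82 and 3.16 in lung. Arrays 1 and 2 were lower than arrays 3 and 4 in liver, lung and blood. The differences from blood were 0.21 ± 0.68 in liver, -0.47 ± 0.68 in small intestine and -0.79 ± 0.68 in lung, and none passed. Lung lay below liver on 5 of 5 slides, with means of 2.72 ± 1.26 in lung and 3.72 ± 1.02 in liver (SD, n = 5 each, limma adjusted p = 0.376). Ccr6 varied with Cxcr6 (r = 0.71 over 20 arrays).

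Cx3cr1, the fractalkine receptor of highly cytotoxic effector cells and of monocytes, gave no call in any comparison. It read 2.87, 3.39, 1.22, 0.10 and 3.22 on small intestine arrays 1 to 5, against 2.01, 2.50, 2.47, 2.28 and 1.62 in blood. It read 2.65, 1.91, 2.20, 2.95 and 1.79 in liver and 2.20, 0.82, 2.77, 1.40 and 1.07 in lung. Small intestine had both the highest and the lowest arrays, and arrays 1 and 2, which were high, also had the highest summed monocyte and macrophage markers, at 283 and 380. Array 5 read 3.22 for Cx3cr1 with a marker sum of 18.2. The differences from blood were -0.02 ± 0.52 in small intestine (95% interval -1.102 to 1.067), 0.12 ± 0.52 in liver and -0.53 ± 0.52 in lung. Of its 3 probes, the 2 brighter ones agree at r = 0.969 and the third stayed at background level on all 20 arrays.

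Ccr2, the receptor for monocyte chemoattractants, stayed at background level on all 20 arrays and was left out of the test. Its background-level readings averaged -2.29 in small intestine, -2.55 in liver, -2.25 in lung and -2.35 in blood, and no fold is given. Its ligand genes Ccl2 and Ccl7 did not enter the test either. Ccl2 was well above background on 2 small intestine, 1 liver, 3 lung and 0 blood arrays, and Ccl7 on 3 small intestine, 1 liver, 1 lung and 1 blood array.

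**Figure D4:**
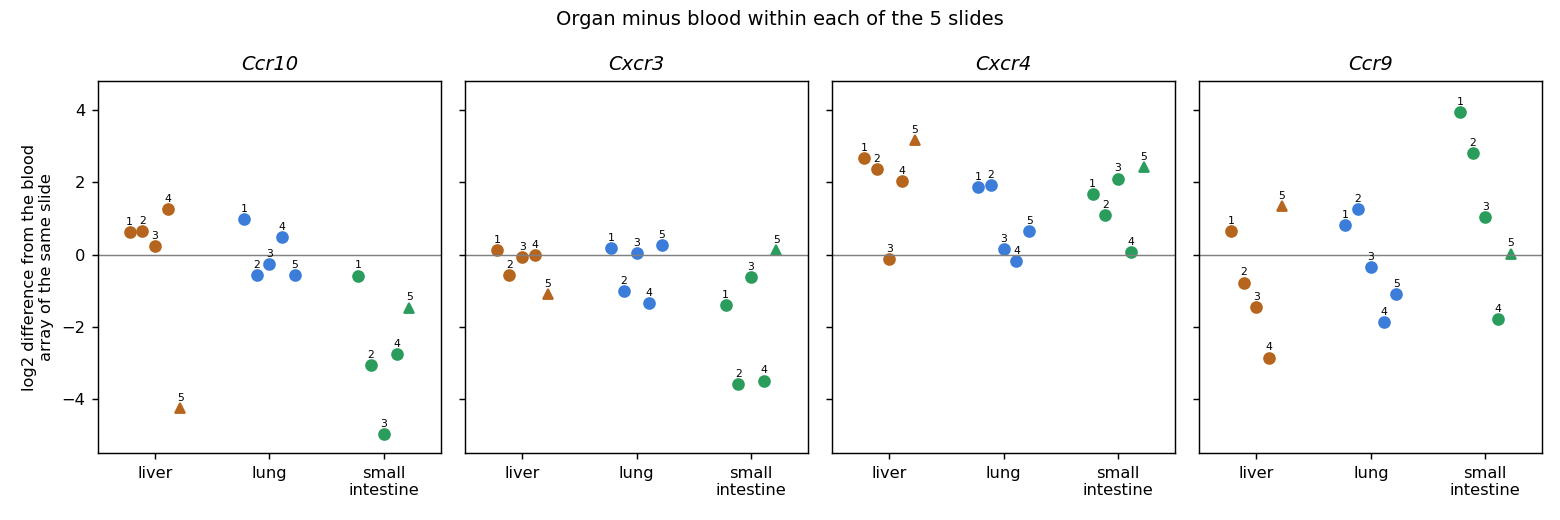
Organ minus blood on the log2 scale (vertical axis) within each of the 5 slides, numbered beside the points, for Ccr10, Cxcr3, Cxcr4 and Ccr9. Triangles mark the slide 5 differences that use the arrays labelled liver 5 and small intestine 5. Ccr10 in small intestine lies below 0 on all 5 slides and Cxcr4 in small intestine above 0 on all 5, while Ccr9 spreads to both sides.

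Over the 4 sites together, an F-test in limma called none of the 7 receptors, where 0.559% of genes passed. The smallest adjusted p values were 0.0884 for Cxcr4, 0.1001 for Ccr10 and 0.138 for Cxcr3. These 3 had an unadjusted p below 0.05, where 2269 of the 8057 genes did. Without the pair of arrays that went against their labels Ccr10 (adjusted p = 0.0021) and Cxcr3 (adjusted p = 0.0259) passed, where 19.8% of genes did. Without liver 5 alone Ccr10 passed at 0.0124, and without small intestine 5 alone Ccr10, Cxcr3 and Cxcr4 passed at 0.0438, 0.0393 and 0.0481. No gene passed in small intestine against liver, 0% of 8057, with 1780 genes, 3 receptors among them, at an unadjusted p below 0.05. The median difference of the 7 receptors was -0.47 in small intestine, -0.30 in liver and -0.38 in lung against blood, where the median of all genes was -0.37, 0.05 and -0.33.

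Without the pair of arrays that went against their labels, the remaining receptor values were as follows. Against blood, small intestine differed by 1.41 for Ccr9, 1.22 for Cxcr4 (adjusted p = 0.0717), -1.50 for Cxcr6, -0.77 for Ccr6 and -0.28 for Cx3cr1, and none of these passed. Liver differed from blood by -1.20 for Ccr9, 0.14 for Ccr6, -0.07 for Cxcr3, 1.73 for Cxcr4, -0.55 for Cxcr6 and 0.25 for Cx3cr1, and none passed. Cxcr4 in liver thus stayed above blood and short of the threshold. Small intestine differed from lung by 1.65 for Ccr9, -1.84 for Cxcr3 (adjusted p = 0.0960) and 0.34 for Cxcr4, and lung from liver by -0.84 for Cxcr4 and -0.93 for Ccr6, again short of the threshold.

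In the rest of the chemokine system calls came only in small intestine against blood, where 10.9% of all genes tested passed. Of the 8057 genes, 75 were called higher and 802 lower there. The counts below come from lists of 3 to 21 tested genes, too few to set against those shares. In that comparison no gene passed in limma without the array small intestine 2. Of the 20 fits that left out 1 array, 19 called Cxcl10, 16 Prex1, 15 Grk2, 15 Pik3cg and 12 Ccr7. Ccr7 was lost without small intestine 1, 2, 3 or 4 or blood 1, 2, 3 or 5, Grk2 and Pik3cg without small intestine 2 or 4 or blood 2, 3 or 5, and Prex1 without small intestine 2 or 4 or blood 2 or 5. Without the pair of arrays that went against their labels all 5 passed, at 1.93 for Ccr7, 4.30 for Cxcl10, -1.57 for Grk2, -2.04 for Pik3cg and -1.83 for Prex1, where 27.6% of genes did.

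Of 18 other chemokine receptors 6 were tested, and 1, Ccr7, passed. Ccr7, which guides T cells and dendritic cells into lymphoid tissue, averaged 6.14 ± 0.84 in small intestine and 4.32 ± 0.76 in blood (SD, n = 5 each), and rose by 1.82 ± 0.53 (adjusted p = 0.0375). In liver Ccr7 was 1.58 ± 0.53 above blood (limma adjusted p = 0.998) and in lung 0.61 ± 0.53 (limma adjusted p = 0.372). The summed signal of 10 dendritic cell markers, 4 of them tested, was 240, 297, 10.0, 63.4 and 8.84 times the 75th percentile on small intestine arrays 1 to 5, against 5.89 to 7.72 in blood. That sum was 4.28, 6.77, 5.10, 7.98 and 65.9 on liver arrays 1 to 5, and 10.2 to 142 in lung. The part of dendritic cells in the Ccr7 and Cxcl10 results was not tested. In small intestine the median difference of these 6 from blood was 0.86. Ccr4, Ccr1, Ccr3 and Gpr15 stayed at background level on all 20 arrays, as did Ackr3, the second receptor of CXCL12.

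Of the 14 ligands of the 8 receptors, 13 had a probe and 3 were tested. Cxcl10, an interferon-induced ligand of CXCR3 made by many cells, averaged 2.53 ± 1.33 in small intestine and -1.56 ± 1.22 in blood, and rose by 4.09 ± 0.80 (adjusted p = 0.0169). In liver Cxcl10 was 3.24 ± 0.80 above blood (limma adjusted p = 0.723) and in lung 2.46 ± 0.80 (limma adjusted p = 0.121). It was well above background on 5 small intestine, 5 liver and 3 lung arrays but on 1 blood array, so the size of each difference is uncertain. Cxcl10 thus entered the test only through small intestine and liver, the sites where it read highest. Nothing is therefore read from its p values or from its calls given above. Ccl25, the ligand of CCR9, averaged 1.46 ± 1.56 in small intestine and -0.13 ± 1.19 in blood (adjusted p = 0.136). Ccl27a, a ligand of CCR10, averaged 0.59 ± 0.49 in small intestine and -0.40 ± 0.94 in blood (adjusted p = 0.0748). Cxcl12 was well above background on 1 lung array, Cxcl16 on 2 small intestine arrays, and Ccl20 and Ccl28 on none. Whether T cells or other cells carried the ligand RNA was not tested.

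Downstream of the receptors, 21 of 27 signalling genes were tested and 3 fell in small intestine against blood. Grk2, a kinase that desensitises chemokine receptors, was lower by -1.34 ± 0.35 (adjusted p = 0.0278). Pik3cg, the lipid kinase activated by Gi-coupled receptors, was lower by -1.64 ± 0.43 (adjusted p = 0.0276), with a signal well above background on 1 small intestine array and 5 blood arrays. Prex1, a Rac activator, was lower by -1.48 ± 0.36 (adjusted p = 0.0221). The median of the 21 was -0.54, where that of all genes was -0.37. Of 21 transcription factors linked to receptor expression, 20 had a probe, 14 were tested and none passed in any of the 6 comparisons. Tbx21, which encodes T-bet, a factor known to drive Cxcr3, averaged 5.60 ± 0.39 in small intestine and 5.52 ± 0.43 in blood, a difference of 0.08 ± 0.29.

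The named genes whose pattern over the 20 arrays was most like that of each receptor were found by Pearson's r among the 8057 genes tested. Genes with a missing value and clone or accession-like names were passed over. For Ccr10 these were Phf11a (r = 0.92, and 0.90 with site means taken off) and Kif22 (0.88 and 0.81). For Cxcr4 they were Coq10b (0.90 and 0.91) and Nr4a1 (0.85 and 0.85), an immediate early gene of antigen receptor signalling. For Cxcr3 they were Gimap8 (0.96 and 0.95) and Srpk2 (0.95 and 0.93). For Ccr6 they were Cd7 (0.91 and 0.91), a T cell surface protein, and Cbarp (0.87 and 0.87). Cxcr6 was most like Tm2d3 (0.86 and 0.84) and Neurl2 (0.84 and 0.83), Cx3cr1 most like Mvb12b (0.75 and 0.80) and Brd2 (0.74 and 0.74), and Ccr9 most like Gsto1 (0.79 and 0.74) and Msmo1 (0.72 and 0.65). The highest of up to 8057 coefficients is high by selection, so these name likeness only.

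**Figure D5:**
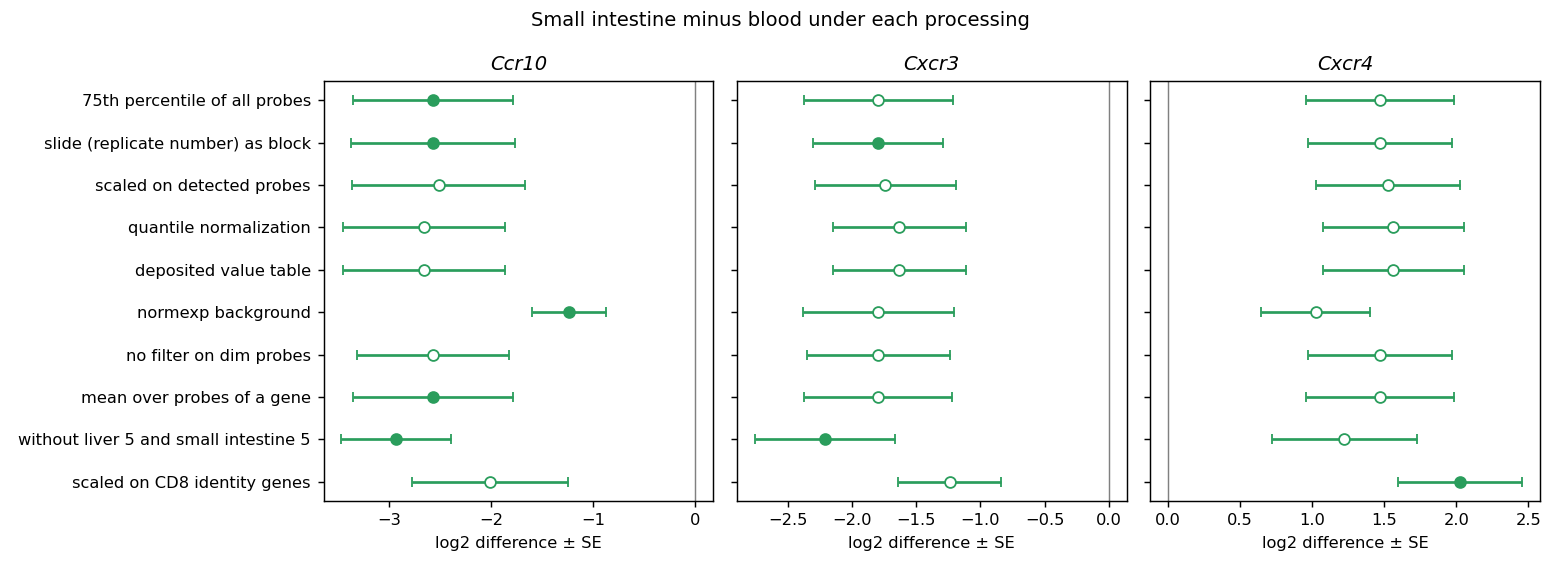
Small intestine minus blood (horizontal axis, log2 difference ± SE) for Ccr10, Cxcr3 and Cxcr4 under each way of processing the arrays. Filled points have an adjusted p below 0.05. The direction is the same in all 10 rows for each of the 3 receptors, while the call changes.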

How the data were processed

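RNA of the selected CD45.1+ cells was amplified and put on Agilent mouse arrays with Cy3 as the only dye, per the labels' protocols. The deposited scanner files give a background-subtracted signal intensity on a linear scale. The file headers name Feature Extraction 11.0.1.1 as its source, and the submitters' processing notes give 10.7 and Partek instead. The deposited value table holds log2 values that match quantile-normalized processed signal (median absolute difference 6.31e-05, median 8.05 in each column) and served as an alternative.

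The value analysed was log2 intensity less the 75th percentile of 39429 probes on that array. Control spots and 24 non-uniform spots were dropped. RefSeq accessions of assembly GRCm38.p6 named 27508 probes, which fall on 20886 genes. The other 11921 were not used by name. Where several probes named a gene (5512 genes), the one with the highest mean was kept. Testing required a signal well above background on 4 of the 5 arrays in 1 site or more, which 8057 genes met.

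With R 4.3.3, limma 3.58.1 (lmFit, eBayes and contrasts.fit) fitted a mean for each site to the 20 arrays, leaving 16 residual degrees of freedom. Tests were two-sided, and Benjamini-Hochberg adjustment ran over the 8057 genes within a comparison. The procedure was tested on simulated data. The receptors and gene lists were chosen with earlier results of these data known. Named were all 8 receptors, the tested ligands, list members that passed, examples of markers, and the 2 genes most correlated with each receptor, clone names aside. Other names from the lists (Ccr4, Ccr1, Ccr3, Gpr15, Ackr3, Tbx21, the untested ligands and the B cell markers) were picked after their values were seen. Some list members are not reported here.

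Arrays with the same replicate number sat on the same slide, 1 per site, so blocking on the replicate is blocking on the slide. Their deviations correlated above 0.1 in 18 of 30 pairs (range -0.374 to 0.562). Alternatives were this block, scaling on 6836 probes detected on all arrays, quantile normalization, the deposited table, normexp with an offset of 50 on the median signal, no filter, the mean of a gene's probes, omission of arrays, and scaling on CD8 identity genes, which was added after the data were seen. Promoter windows came from RefSeq for 7 of the 8 receptors.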

Additional observations from a re-analysis of the deposited data

Results flagged for a closer look

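Of 32 groups of 5 arrays (8 receptors at 4 sites), 2 had an array whose gap to the nearest of the others, divided by the range of the group, exceeded 0.71. Chance flags about 1 in 20 groups. The Ccr10 signal on the array labelled liver 5 was -3.05 on the log2 scale, not well above background, against 0.92 to 2.36 on the other liver arrays (gap 0.735 of the range). This array is also the liver array with Paneth cell markers, at a mean of 4.57, and the part of this in the Ccr10 value was not tested. The Ccr2 reading on the array labelled blood 3 was -3.33, with a gap of 0.762 of the range, and all readings of Ccr2 were at background level.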

How the results depend on the processing

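The direction of Ccr10, Cxcr3 and Cxcr4 in small intestine against blood was the same under all 9 other ways of processing, and the Ccr10 call held in 4 of them, with a difference of -2.93 to -1.24 and an adjusted p of 0.00157 to 0.165 in limma. The causes of changed calls were not tested. In small intestine against blood 2 receptors passed with the replicate block (Ccr10 at an adjusted p of 0.0450 and Cxcr3) and 2 without the arrays liver 5 and small intestine 5, against 0 with scaling on detected probes, quantile normalization, the deposited table or no filter on dim probes. Without those arrays 3 receptors passed in small intestine against liver, 1 in small intestine against lung and 2 over the 4 sites. Genes called moved by over 1.5 times as follows. The replicate block gave 3 in liver and 107 in lung against blood, and changed no other receptor call. Scaling on detected probes gave 24 in lung and 19 in small intestine against blood, 20 in small intestine against lung and 21 over the sites. Quantile normalization and the deposited table each gave 26 in lung and 495 in small intestine against blood, and 27 in small intestine against lung. Normexp gave 0 in lung against liver, 0 in small intestine against lung and 2 over the sites. No filter gave 2 in liver and 252 in small intestine against blood, and the mean of probes gave 7 in small intestine against lung. Without the pair 188 genes passed in lung and 2221 in small intestine against blood, 1399 in small intestine against liver, 191 in small intestine against lung and 1595 over the sites. Identity scaling gave 28 in lung and 37 in small intestine against blood, 15 in lung against liver, 24 in small intestine against lung and 19 over the sites. Leaving out 1 array gave 0 to 2 genes in liver, 16 to 893 in lung and 0 to 2134 in small intestine against blood, 5 to 62 in lung against liver, 0 to 902 in small intestine against liver, 0 to 118 in small intestine against lung and 13 to 1159 over the sites. It gave 0 to 2 receptors in small intestine against blood and against liver, 0 to 1 against lung, 0 to 3 over the sites and 0 in the others. The 0 genes of small intestine against blood came without small intestine 2 and the 2134 without small intestine 5.

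Receptor differences that did not pass changed sign as follows. Normexp gave 0.077 for Ccr10, -0.0024 for Ccr6 and -5.5e-05 for Cx3cr1 in liver against blood, 0.032 for Ccr9 and -0.13 for Ccr10 in lung against blood, and -0.20 for Ccr10 in lung against liver. Without the pair Ccr10 was 0.60 in liver against blood and -0.59 in lung against liver. With scaling on detected probes Cx3cr1 was -0.060 in liver and 0.038 in small intestine against blood and 0.10 in small intestine against liver, and Ccr10 was -0.14 in lung against blood. Quantile normalization and the deposited table each gave Cx3cr1 0.23 in small intestine against blood and 0.10 against liver. Identity scaling gave Cx3cr1 -0.024 in liver and 0.54 in small intestine against blood, and 0.56 in small intestine against liver. It gave Ccr6 0.090 in small intestine against blood and 0.027 against liver, Cxcr3 0.32 in lung against liver, Cxcr4 0.15 in small intestine against liver and Cxcr6 0.091 in small intestine against lung. Leaving out 1 array moved values across 0 in liver against blood for Ccr10 (-0.76 to 0.60), Ccr6 (-0.15 to 0.55), Cxcr6 (-0.74 to 0.21) and Cx3cr1 (-0.040 to 0.25), in lung against blood for Ccr9 (-0.78 to 0.25) and Ccr10 (-0.24 to 0.33), and in small intestine against blood for Cx3cr1 (-0.33 to 0.50). It did so in lung against liver for Ccr9 (-0.20 to 0.95), Ccr10 (-0.59 to 0.77) and Cxcr3 (-0.30 to 0.17), in small intestine against liver for Cx3cr1 (-0.45 to 0.37), and in small intestine against lung for Ccr6 (-0.0073 to 0.78) and Cxcr6 (-0.77 to 0.38). Signal close to background limits Ccr9, Ccr10 in small intestine and Ccr2.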
